A study of Mus musculus with 6 samples.

Results

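The 5 genes described here are the connexins Gja1, Gjb2, Gjb5, Gjb6 and Gjc1, chosen by gene symbol as connexins of the corneal epithelium, out of 35673 gene rows in the count table. All 5 symbols were found, 1 row each, and all 5 passed the filter on low counts. Transcripts were measured by RNA sequencing of mouse cornea in 6 libraries, 3 titled Cationorm and 3 titled Control. The labels give male C57BL/6J mice of 6 to 8 weeks and tag all 6 libraries with the same disease model, contact lens-related dry eye. That model combines 0.1% benzalkonium chloride, an irritant preservative, with lens wear for 6 h per day. Mice with the model then received eye drops for 14 days, 5 µL to an eye, and the drops named are saline, hyaluronic acid and Cationorm, a cationic oil-in-water nanoemulsion. The labels do not say which drop, if any, the Control animals received, or whether Control was an arm of the model. The treatment tag reads wild-type in all libraries, and the labels do not say whether a library is 1 animal or a pool.

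Connexins are membrane proteins that assemble as hexamers into a hemichannel, which docks with one on the neighbouring cell to form a gap junction. Ions, second messengers and small metabolites pass through these channels, and in the corneal epithelium, which has no blood vessels, they couple the cell layers. Gja1 encodes Cx43, the connexin of basal epithelial cells that stromal keratocytes and corneal endothelial cells also make. Gjb2 encodes Cx26 and Gjb6 encodes Cx30, partners that can mix in 1 channel and that are best known from the inner ear and from skin. Gjb5 encodes Cx31.1, found in stratified epithelia, and Gjc1 encodes Cx45, known from the heart's conduction system, smooth muscle and neurons.

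Connexins dock through a pair of extracellular loops, each held by conserved cysteines. The stretch of 36 coding bases around the cysteine codons of the first loop is printed for the 5 genes, because it lets a reader see how alike related members are, which bears on whether their reads can be told apart. The bases come from the GENCODE M21 transcripts (GRCm38), read 5′ to 3′ on the coding strand, and the capitals mark the 3 cysteine codons. The stretch starts at coding base 160 in Gja1 and at coding base 157 in the other 4 genes.
Gja1 (chromosome 10): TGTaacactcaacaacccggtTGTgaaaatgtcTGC
Gjb2 (chromosome 14): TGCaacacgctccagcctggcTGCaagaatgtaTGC
Gjb5 (chromosome 4): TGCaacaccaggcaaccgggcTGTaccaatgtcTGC
Gjb6 (chromosome 14): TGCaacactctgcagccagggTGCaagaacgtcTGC
Gjc1 (chromosome 11): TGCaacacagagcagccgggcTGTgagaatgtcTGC
Gjb2 and Gjb6 were the closest pair, identical at 30 of the 36 bases, and Gja1 and Gjb2 were the most distant, at 25. The longest coding transcript of each connexin was then compared. The longest exact run shared by any pair of the 5 was 20 bases, between Gjb2 and Gjb6. No stretch of 50 bases of that transcript of Gja1, Gjb2, Gjb5 or Gjb6 occurred in a transcript of another gene on either strand. Exon bases outside that transcript were not searched, and for Gja1 it holds 3182 bases, against 10257 in all annotated exons merged. Gjc1 shared 2 of its 2265 such stretches with 1 other gene. None of the 5 genes overlapped another gene in this annotation.

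Library totals ran from 32486043 to 39193311 counts. Krt12, the keratin that defines corneal epithelium, had 8515, 9075 and 8593 CPM in Cationorm 1 to 3, against 8838, 8787 and 8350 CPM in Control 1 to 3. CPM is here a gene's count scaled to a common library total, with TMM factors for the make-up of each library. The summed level of 8 epithelial markers was 60779, 63320 and 58589 CPM in Cationorm libraries and 60726, 60611 and 56628 CPM in Control libraries. In whole tissue, fewer cells of a type and less RNA per cell cannot be told apart.

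Cationorm libraries were compared with Control libraries as titled, and none of the 5 connexins passed the test. Gja1, Gjb2 and Gjb5, the 3 more abundant of them, had fold changes between 1.05 and 1.07, and their 95% intervals together ran from a fold of 0.902 to 1.23. Gjb6 and Gjc1 had a larger fitted fold of 1.28 each, with intervals that reached from below 1 to 1.71 and 1.82. All 5 fitted values lay above 0 on the log2 scale, against 51.2% of all 18804 genes tested. Over those 18804 genes, edgeR's quasi-likelihood test made 0 calls (0%) at an adjusted p of 0.05. Unadjusted p-values under 0.05 were found for 8.73% of the genes, 5.16% higher and 3.57% lower in Cationorm, and for 0 of the 5 connexins. DESeq2 called 0.271% of the genes kept by the same filter, and 0 of the 5. The libraries of the groups overlapped for each of the 5 connexins, and did not overlap for 14.8% of all genes tested.

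**Figure D1:**
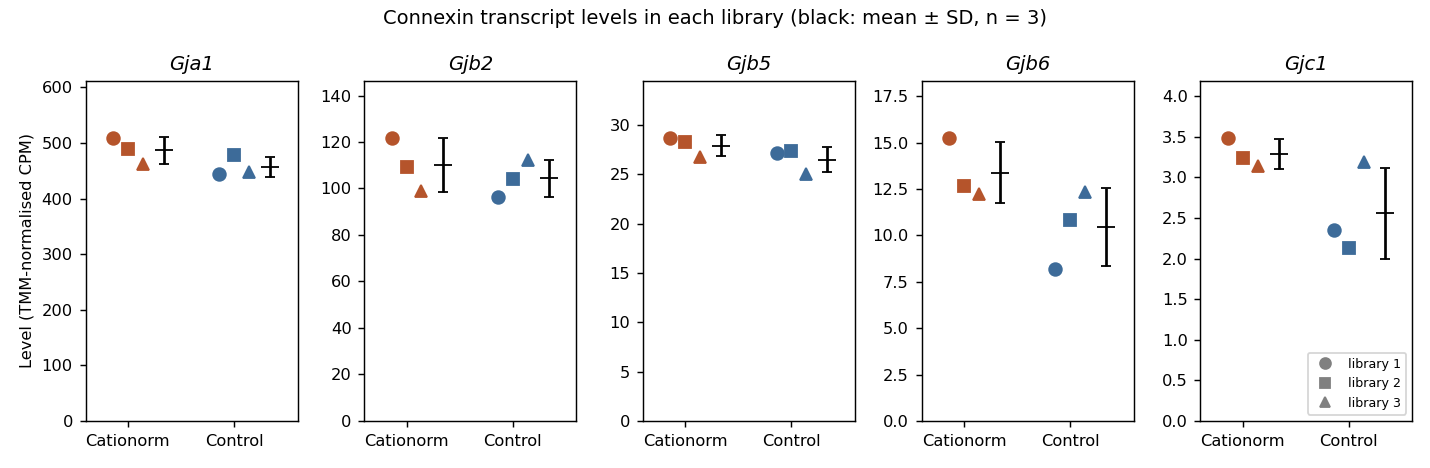
Level of each of the 5 connexins in TMM-normalised CPM (vertical axis, from 0) in the Cationorm and Control libraries, with 1 point per library and the mean ± SD of 3 libraries in black. The ranges of the groups overlap for every gene, and Control 3 lies with the Cationorm libraries for Gjb6 and Gjc1.

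Gja1 had 509.6, 489.7 and 461.5 CPM in Cationorm 1 to 3, against 444, 478 and 448.5 CPM in Control 1 to 3. Cationorm 1 and 2 were above every Control library, and Cationorm 3 was below Control 2. The means were 487 ± 24.2 CPM in Cationorm and 457 ± 18.1 CPM in Control (SD, n = 3 each). The log2 fold change was 0.09 ± 0.06 (SE), with a 95% interval of -0.06 to 0.24 and an adjusted p of 0.612 in edgeR. This is the most deeply counted of the 5, at 15748 to 18451 counts per library. Keratocytes also make Gja1, and the summed level of 7 keratocyte markers was 2594.5, 1614 and 1613 CPM in Cationorm and 2488, 2468 and 2144 CPM in Control. Of those 7 markers 6 were lower in Cationorm, 3 of them with an unadjusted p under 0.05, none passed over all genes and none was at 0 in every library. Among all genes tested, 51.2% lay above 0, and 3.57% were lower with an unadjusted p under 0.05 in edgeR. The 6 corneal endothelial markers summed to 1167, 996 and 987 CPM in Cationorm and 1049.5, 988 and 960.1 CPM in Control, with 5 of 6 higher, none at an unadjusted p under 0.05 and none at 0 in every library. The part of these cells in the Gja1 level was not tested.

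Gjb2 had 122, 109 and 98.96 CPM in Cationorm 1 to 3, against 96.2, 104 and 112 CPM in Control 1 to 3. The groups overlapped broadly: the highest library was Cationorm 1 and the second highest Control 3. The log2 fold change was 0.08 ± 0.10 (SE), with an interval of -0.15 to 0.30 and an adjusted p of 0.777 in edgeR. Without Cationorm 1 it was -0.0013, so that its sign rests on that library.

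Gjb5 had 28.7, 28.3 and 26.8 CPM in Cationorm 1 to 3, against 27.2, 27.3 and 25.0 CPM in Control 1 to 3. Its 6 libraries lay closest together of the 5 genes, with a coefficient of variation of 4.80%, against 5.35% for Gja1, 8.79% for Gjb2, 19.6% for Gjb6 and 18.7% for Gjc1. The log2 fold change of Gjb5 was 0.07 ± 0.08 (SE), with an interval of -0.10 to 0.25 and an adjusted p of 0.726 in edgeR.

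Gjb6 had 15.3, 12.7 and 12.2 CPM in Cationorm 1 to 3, against 8.18, 10.8 and 12.4 CPM in Control 1 to 3. Cationorm 1 was the highest library and Control 1 the lowest, and Control 3 lay just above Cationorm 3. The means were 13.4 ± 1.64 CPM in Cationorm and 10.5 ± 2.11 CPM in Control (SD, n = 3 each), and the log2 fold change was 0.36 ± 0.18 (SE), with an interval of -0.06 to 0.77. Gjb6 had the smallest p of the 5, 0.0822 before and 0.550 after adjustment over all genes in edgeR. Without Control 3 the log2 fold change was 0.50 (adjusted p = 0.305 in edgeR), and without Control 1 it was 0.21.

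Gjc1 was the least abundant of the 5, with 74 to 122 counts per library. It had 3.49, 3.24 and 3.14 CPM in Cationorm 1 to 3, against 2.35, 2.14 and 3.19 CPM in Control 1 to 3. Control 1 and 2 were below every Cationorm library, whereas Control 3 was between Cationorm 2 and Cationorm 3. The log2 fold change was 0.36 ± 0.21 (SE), with an interval of -0.14 to 0.86 and an adjusted p of 0.575 in edgeR. It was 0.55 without Control 3 and 0.23 without Control 2.

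In marker lists of smooth muscle and of iris and pigment cells, as for Gjc1, Control 3 stood apart from the other Control libraries. This pattern was not particular to these lists. The 6 Schwann cell markers summed to 204, 196 and 221 CPM in Control 1 to 3. Over the 6 libraries, 377 of 11651 genes had a correlation (Pearson's r) above 0.95 with Gjc1. For Gjb6, Control 3 was likewise the highest Control library, but Control 1 stood apart and Control 2 lay nearer to Control 3. The 8 smooth muscle and pericyte markers summed to 433, 435 and 346 CPM in Cationorm 1 to 3, against 189, 161 and 326 CPM in Control 1 to 3. The 8 melanocyte, iris and ciliary body markers summed to 1507, 1231 and 1182 CPM in Cationorm 1 to 3, against 491, 426 and 1059 CPM in Control 1 to 3. In both lists 8 of 8 genes were higher in Cationorm, with an unadjusted p under 0.05 for 4 of the smooth muscle and 7 of the pigment genes, none passed over all genes, and no gene was at 0 in every library. Among all genes tested, 51.2% lay above 0, and 5.16% were higher with an unadjusted p under 0.05 in edgeR. Genes of 1 list can vary together between libraries, so such counts are not independent. The 9 vascular endothelial markers summed to 122, 123 and 124 CPM in Cationorm 1 to 3, against 93.4, 86.3 and 132 CPM in Control 1 to 3, with 7 of 9 higher, 2 at an unadjusted p under 0.05, none past the test and none at 0 in every library. The 6 superficial epithelium markers summed to 10621, 10907 and 9805 CPM in Cationorm 1 to 3. In Control 1 to 3 they summed to 9872, 9487 and 9989 CPM. Of these markers 4 of 6 were higher in Cationorm, 1 at an unadjusted p under 0.05, none past the test. Control 3 was above Cationorm 3 in this list, as for Gjb6 and Gjc1. For the 6 basal and limbal markers, Control 3 was the lowest Control library, at 26297 CPM. The part of any of these cells in the levels of Gjb6 and Gjc1 was not tested.

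**Figure D2:**
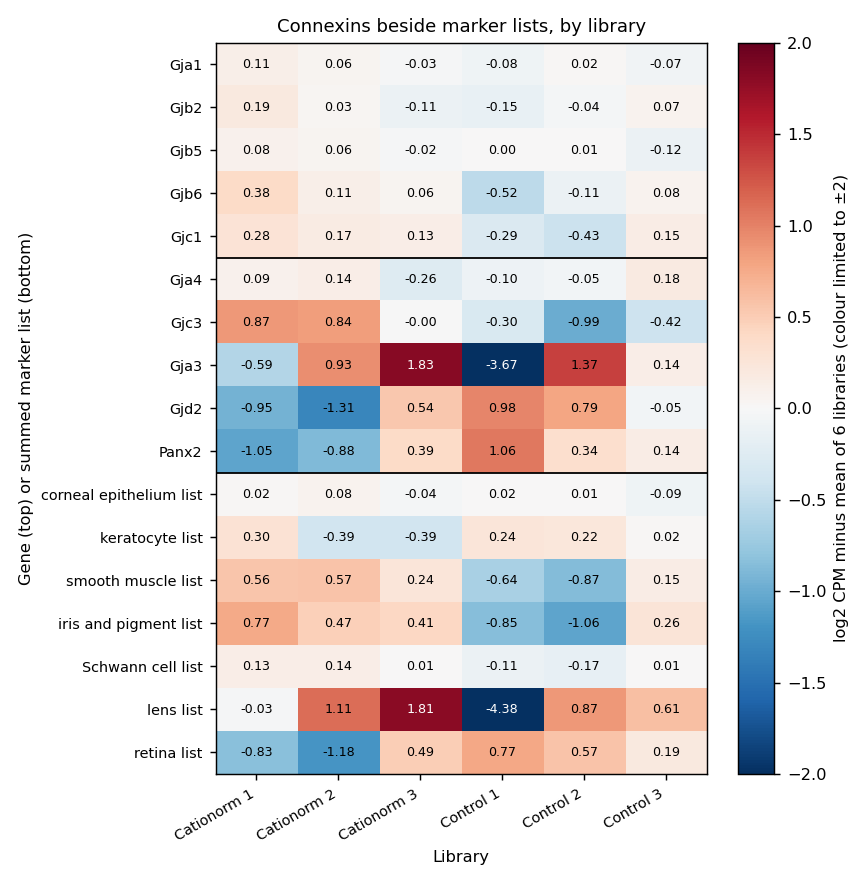
Deviation of each library from the mean of the 6 libraries in log2 CPM (colour and printed number; colours end at ±2) for the 5 connexins, 5 other channel genes and the summed levels of 7 marker lists. Rows of Gja1, Gjb2 and Gjb5 stay near 0, Gja3 shares a low value in Control 1 with the lens list, and Gjd2 and Panx2 share low values in Cationorm 1 and 2 with the retina list.

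The relation of Gjb6 to Gjb2 was looked at as a ratio, because their proteins share channels and because scaling between libraries cancels in it. The genes are neighbours on chromosome 14, with no other gene between them in RefSeq (GRCm38.p6). Gjb6 stood at 12.53%, 11.6% and 12.4% of the Gjb2 CPM in Cationorm 1 to 3, against 8.50%, 10.4% and 10.99% in Control 1 to 3. The ratios of the groups did not overlap. For levels of single genes, groups did not overlap for 14.8% of all genes tested, and no such share was computed for ratios. The level of Gjb6 by itself overlapped between the groups. Gjb2, the denominator, was at 112 CPM in Control 3, its second highest library. The mean log2 ratio was -3.04 ± 0.06 in Cationorm and -3.34 ± 0.20 in Control (SD, n = 3 each), a difference of 0.30. A two-sided exact permutation test gave p = 0.10, which is the smallest value that 3 against 3 libraries allow, so this design cannot pass 0.05. The difference ran from 0.19 to 0.37 when each library was left out in turn, with 0.19 without Control 1.

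The 250 bases before the transcription start of these neighbours are printed because the 2 genes lie side by side. Any part of these sequences in the levels of the genes was not tested. The sequences are from RefSeq (GRCm38.p6, an older build than the one in the submitters' processing notes), on the minus strand, 5′ to 3′. Capitals mark matches to GGGCGG on either strand, a motif called the GC box.
Gjb2, chr14:57104703-57104952: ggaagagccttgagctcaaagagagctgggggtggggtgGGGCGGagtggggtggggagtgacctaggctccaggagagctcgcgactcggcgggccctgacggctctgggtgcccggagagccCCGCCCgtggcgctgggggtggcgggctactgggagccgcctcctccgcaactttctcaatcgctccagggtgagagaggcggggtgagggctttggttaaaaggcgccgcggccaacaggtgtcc
Gjb6, chr14:57133612-57133861: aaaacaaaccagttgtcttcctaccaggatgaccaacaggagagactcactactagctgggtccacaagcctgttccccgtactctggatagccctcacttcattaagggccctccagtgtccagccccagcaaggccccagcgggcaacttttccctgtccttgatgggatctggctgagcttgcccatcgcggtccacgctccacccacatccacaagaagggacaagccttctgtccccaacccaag
GGGCGG occurred 2 times in the Gjb2 window, starting 211 and 126 bases before the start, and 0 times in the Gjb6 window, while 32.9% of 27025 promoter windows of this length held it. The windows were 69.2% G and C for Gjb2 and 56.8% for Gjb6, against a median of 52% over all promoters. Of 4 other motifs searched on both strands, TGANTCA was found 1 time in the Gja1 window (6.87% of promoters) and CACCTG 1 time in the Gjb2 window (17.1%). TATAAA (13% of promoters) and CCAAT (34.5%) were each found 1 time in the Gjb5 window. Promoter entries were at hand for 4 of the 5 genes, all but Gjc1. A match of this kind describes letters and not a bound factor, and the counts here do not bear on it.

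To compare levels between genes, CPM was divided by the length in kb of the longest coding transcript of each gene in GENCODE M21. On that scale Gja1 led the 16 connexins reported here, at 153 ± 7.6 CPM per kb in Cationorm and 144 ± 5.68 CPM per kb in Control (SD, n = 3 each). Gjb2 followed at 45.7 ± 4.76 CPM per kb in Cationorm and 43.3 ± 3.36 CPM per kb in Control. Gjb5 stood at 16.2 ± 0.600 CPM per kb in Cationorm and 15.4 ± 0.756 CPM per kb in Control. Gjb6 stood lower, at 6.36 ± 0.779 CPM per kb in Cationorm and 4.97 ± 1.0 CPM per kb in Control. Gjc1 stood below Gjd2, Gja4 and Gja3, at 1.42 ± 0.0785 CPM per kb in Cationorm and 1.11 ± 0.241 CPM per kb in Control. With this length, the ranges of the 6 libraries did not overlap between Gja1 and Gjb2, between Gjb2 and Gjb5 or between Gjb5 and Gjb6. They did overlap between Gjb6 and Gjd2 or Gja3, and between Gjc1 and Gjd2 or Gja3. The distance of Gja1 from Gjb2 depends on the length. With all annotated exons merged, their mean shares of the 16 connexins were 38.5% and 37.0% in Cationorm. In Control they were 38.2% and 37.1%, and ranges were not compared with that length.

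As a share of the summed transcripts per length of those 16 connexins, Gja1 made up 66.2 ± 0.413% in Cationorm and 66.0 ± 1.03% in Control, and Gjb2 19.7 ± 1.12% in Cationorm and 19.9 ± 1.37% in Control (SD, n = 3 each). The share of Gjb5 was 7.02 ± 0.119% in Cationorm and 7.09 ± 0.444% in Control. Gjb6 held 2.74 ± 0.215% in Cationorm and 2.28 ± 0.421% in Control, and Gjc1 held 0.614 ± 0.0084% in Cationorm and 0.509 ± 0.115% in Control. Together the 5 made up 94.8% to 97.5% in Cationorm libraries and 95.03% to 96.4% in Control libraries. These shares leave out connexins not reported here, so they are not shares of the whole family. They also depend on the length used for Gja1: with all its annotated exons merged, retained introns included, Gja1 and Gjb2 held 38.5% and 37.0% in Cationorm and 38.2% and 37.1% in Control.

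**Figure D3:**
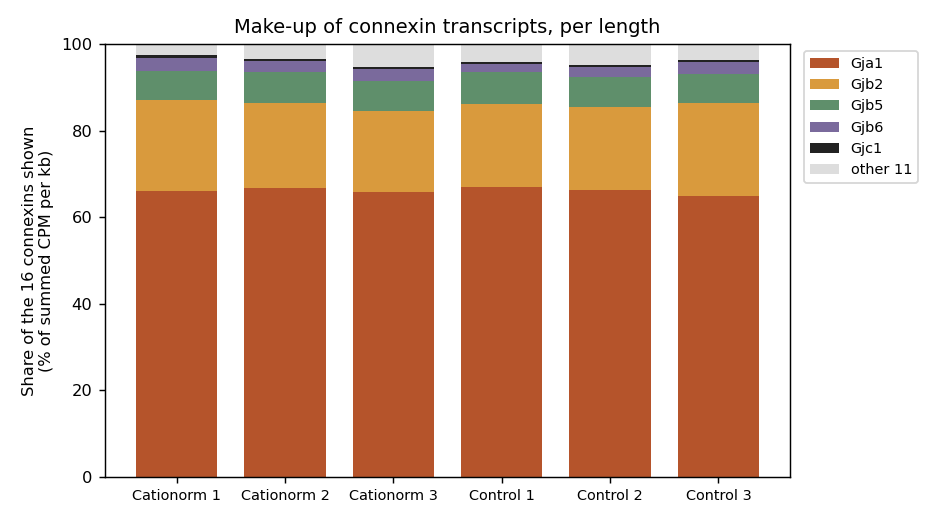
Share of each connexin in the summed CPM per kb of the 16 connexins reported here (stacked bars, in % of the sum) in each library, Cationorm at left and Control at right. Gja1 takes about the same share in each library, lowest at 64.9% in Control 3 and highest at 66.9% in Control 1, and the thin Gjb6 segment is smallest in Control 1, at 1.86%.

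The other 11 connexins reported here divide by where they are known to be made. Gja4 (Cx37), a connexin of vascular endothelium, had 5.14, 5.31 and 4.04 CPM in Cationorm 1 to 3, against 4.502, 4.64 and 5.47 CPM in Control 1 to 3. Its groups overlapped, and its log2 fold change was -0.01 (interval -0.43 to 0.41).

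Connexins of neighbouring eye tissues varied widely between libraries, together with the markers of those tissues. Gja3 (Cx46), a lens connexin, had 2.54, 7.30 and 13.6 CPM in Cationorm 1 to 3, against 0.30, 9.90 and 4.22 CPM in Control 1 to 3. It was lowest in Control 1, where 9 lens markers summed to 82.4 CPM, against 1676, 3705 and 6003 CPM in Cationorm 1 to 3 and 3126.5 and 2610 CPM in Control 2 and 3. Of those lens markers 9 of 9 were higher in Cationorm, against 51.2% of all genes tested, with none past the test and none at 0 in every library. Gjd2 (Cx36), the connexin of retinal neurons, had 3.71, 2.89 and 10.5 CPM in Cationorm 1 to 3, against 14.2, 12.4 and 6.92 CPM in Control 1 to 3. The 10 retina markers summed to 2490, 1959 and 6215 CPM in Cationorm 1 to 3, against 7535, 6553 and 5044 CPM in Control 1 to 3, with 10 of 10 lower in Cationorm, 3 with an unadjusted p under 0.05, none past the test and none at 0 in every library. Among all genes tested, 3.57% were lower with an unadjusted p under 0.05 in edgeR. Markers of 1 tissue can vary together between libraries, so such counts are not independent. The log2 fold changes were 0.71 (interval -1.64 to 3.05) for Gja3 and -0.97 (interval -2.16 to 0.22) for Gjd2. The part of these tissues in the values was not tested.

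Of the 11 other connexins 5 passed the filter on low counts, 3 of them above and 2 below 0, with a median log2 fold change of 0.71, against a median of 0.01 over all genes tested. None passed the test (smallest adjusted p = 0.550 in edgeR), and 2 had an unadjusted p under 0.05, both higher in Cationorm, against 5.16% of all genes in that direction. These were Gjc3 and Gja5, named after their values were seen. Gjc3 (Cx29), a connexin of Schwann cells and other glia, had 1.46, 1.43 and 0.798 CPM in Cationorm 1 to 3, against 0.650, 0.404 and 0.598 CPM in Control 1 to 3, and its groups did not overlap. Its log2 fold change was 1.15 ± 0.35 (SE), on 14 to 54 counts per library, and 2.25% of its stretches of 50 bases also lie in other genes' transcripts. The 6 Schwann cell markers summed to 240.1, 242 and 222 CPM in Cationorm 1 to 3, against 204, 196 and 221 CPM in Control 1 to 3, with 6 of 6 higher, 3 of them with an unadjusted p under 0.05 and none past the test, and their part was not tested. Among all genes tested, 51.2% lay above 0, and 5.16% were higher with an unadjusted p under 0.05 in edgeR. Gja5 (Cx40), an arterial connexin, had a log2 fold change of 0.89 ± 0.38 (SE) on 10 to 38 counts per library. Its value is uncertain, since 24.2% of its stretches of 50 bases also lie in transcripts of 2 other genes. Gja5 also overlaps Gpr89, among other genes, in the annotation. The 6 connexins that did not pass the filter, Gja6, Gja10, Gjb1, Gjd3, Gjd4 and Gje1, had at most 10 counts in any library. They were not detectable above a few counts at this depth.

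Pannexins form channels like connexins but as a rule do not join cells. Panx1, the widely made member, had 18.9, 16.2 and 15.2 CPM in Cationorm 1 to 3, against 15.9, 17.0 and 14.6 CPM in Control 1 to 3, with a log2 fold change of 0.08 (interval -0.19 to 0.36). Panx2, a pannexin of neural tissue, had 1.90, 2.15 and 5.16 CPM in Cationorm 1 to 3, against 8.23, 4.99 and 4.36 CPM in Control 1 to 3. It was lowest in Cationorm 1 and 2, as were Gjd2 and the retina markers, and its log2 fold change was -0.93 (interval -1.95 to 0.09, adjusted p = 0.550 in edgeR). Panx3 had no count.

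**Figure D4:**
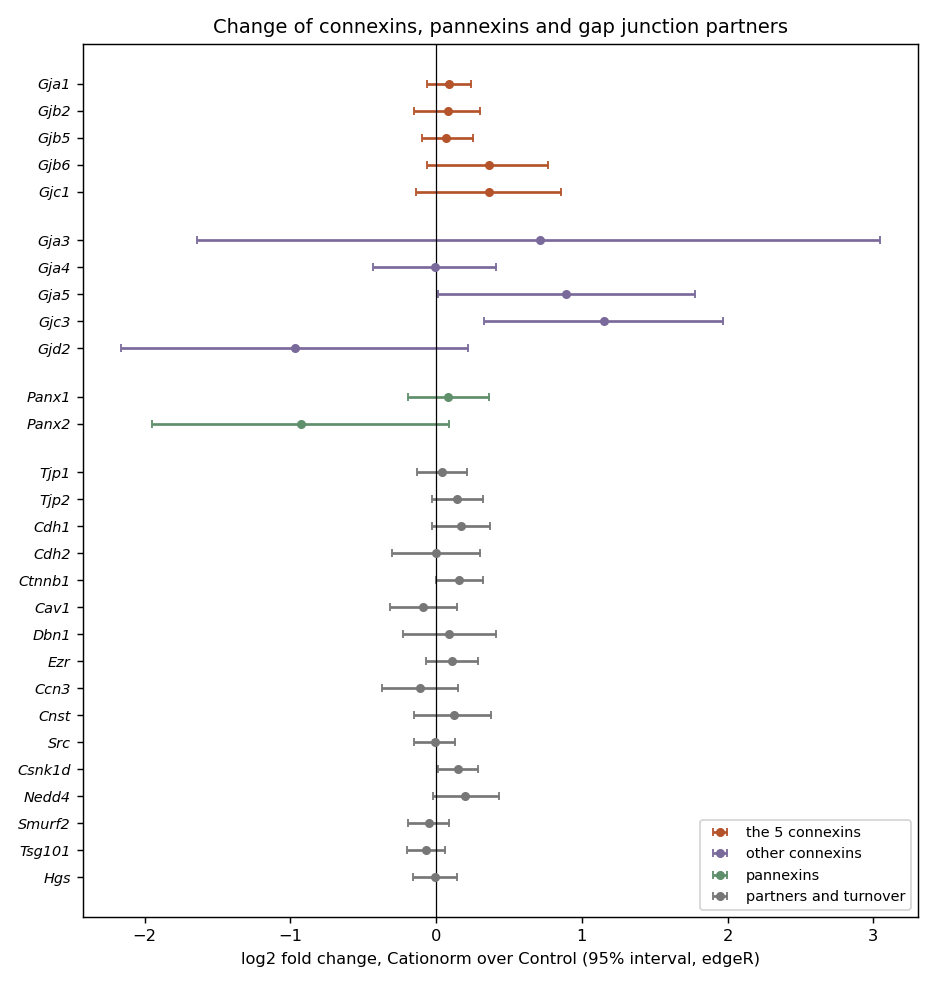
Fitted log2 fold change of Cationorm over Control (points) with its 95% interval (bars) from edgeR for the 5 connexins, the 5 other connexins and 2 pannexins that were tested, and 16 partner genes. The intervals of Gja1, Gjb2, Gjb5, Gjb6 and Gjc1 all include 0, and those of the lens and retina connexins Gja3 and Gjd2 are wider.

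A list of 16 genes whose products bind connexins, modify them or remove them from the membrane was read from the same fit. None passed the test (smallest adjusted p = 0.550 in edgeR), 9 lay above and 7 below 0, and the median log2 fold change was 0.07, against 0.01 over all genes. At an unadjusted p under 0.05 there were 2, both higher in Cationorm, against 5.16% of all genes in that direction. Groups did not overlap for 3 of the 16, against 14.8% of all genes. Tjp1, the scaffold ZO-1 that binds the tail of Cx43, had a log2 fold change of 0.04 ± 0.07 (SE). Cdh1, the cadherin whose contacts precede gap junction assembly, had 556, 524 and 466 CPM in Cationorm 1 to 3, against 449, 433 and 489 CPM in Control 1 to 3, a log2 fold change of 0.17 ± 0.08 (SE). For Cdh1, Control 3 lay above Cationorm 3, so that the groups overlapped.

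Csnk1d and Ctnnb1 were the 2 partners with an unadjusted p under 0.05. Csnk1d, the casein kinase 1 isoform that phosphorylates Cx43, had 179, 178 and 167 CPM in Cationorm 1 to 3, against 159, 153 and 159 CPM in Control 1 to 3. Ctnnb1, the catenin that links cadherins to the cytoskeleton, had 562, 564 and 543 CPM in Cationorm 1 to 3, against 501, 463 and 531 CPM in Control 1 to 3. Both had groups that did not overlap. Their log2 fold changes were 0.15 ± 0.06 and 0.16 ± 0.07 (SE), with an adjusted p of 0.550 each in edgeR. Nedd4, the ubiquitin ligase that marks Cx43 for removal, had 623, 602 and 554 CPM in Cationorm 1 to 3, against 503, 462 and 580 CPM in Control 1 to 3. Its log2 fold change was 0.20 ± 0.10 (SE), and Control 3 lay above Cationorm 3. The remaining partner whose groups did not overlap was Tsg101, part of the sorting machinery for endocytosed proteins and named after its values were seen. It had 109, 105 and 108 CPM in Cationorm 1 to 3, against 110, 115 and 113 CPM in Control 1 to 3, a log2 fold change of -0.07. Over all 16 partners the log2 fold changes ran from -0.11 to 0.20.

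The genes whose levels over the 6 libraries were most like each connexin were looked up among 11651 genes with a mean of at least 5 CPM, by Pearson's r of log2 CPM. With 6 points from libraries that share depth and tissue makeup, high values are common, and r is given as a description. Gja1 was most like Tbl1xr1 (r = 0.997), Aldh18a1 (r = 0.995) and Tars (r = 0.994), and 51 genes had an r above 0.95. Gjb2 was most like Ptprh (r = 0.991), Osbpl9 (r = 0.988) and Primpol (r = 0.986), with 48 genes above 0.95. Gjb5 was most like Ifi30 (r = 0.997), E2f2 (r = 0.996) and Utp4 (r = 0.989), with 25 genes above 0.95. Gjb6 was most like Tmem9b (r = 0.992), Ltbp1 (r = 0.992) and Sptlc1 (r = 0.991), with 90 genes above 0.95. Gjc1 was most like Supt5 (r = 0.999), Fermt2 (r = 0.997) and Ets1 (r = 0.996), with 377 genes above 0.95, the most of the 5. Ltbp1, a matrix protein that binds latent TGF-beta, had 49.9, 37.9 and 35.1 CPM in Cationorm 1 to 3, against 21.9, 29.1 and 36.3 CPM in Control 1 to 3, the same order of libraries as Gjb6. None of these 15 genes passed the test, which made 0 calls over all 18804 genes tested.

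**Figure D5:**
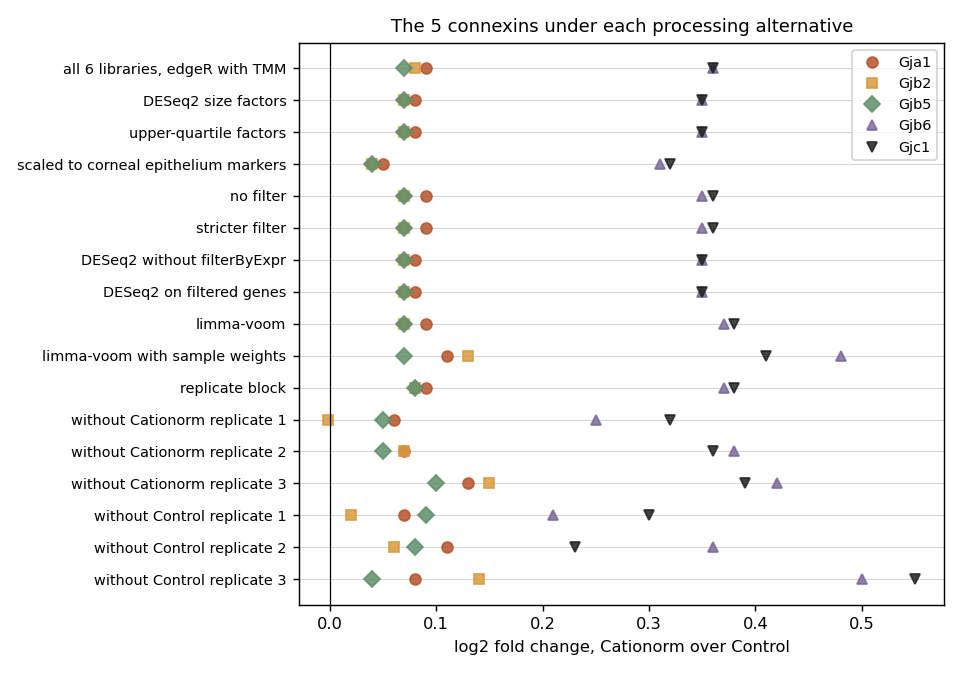
Fitted log2 fold change of Cationorm over Control (horizontal axis) for each of the 5 connexins under each alternative of normalisation, filter, test, blocking and left-out library (rows). Gja1, Gjb2 and Gjb5 stay between -0.0013 and 0.15, and Gjb6 and Gjc1 between 0.21 and 0.55, with no value past the test.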

How the data were processed

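Corneal RNA was isolated with TRIzol and sequenced from mRNA-enriched TruSeq libraries, per the labels' protocols. The deposited table, per the file headers, holds whole-number counts per gene symbol with 1 column for each library, read from the values as raw and not normalized. GRCm39, mm39 and DESeq2 appear in the submitters' processing notes, with no role. The sources used here do not give an aligner, counter or strand setting. A count of 2 (14587 values) was more frequent than a count of 1 (6870 values), so a fragment may add 2 counts, and counting error is then understated.

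Groups were taken from the titles. Counts were scaled by TMM, filtered with filterByExpr (18804 of 35673 genes kept) and tested with edgeR 4.0.16 (quasi-likelihood, R 4.3.3), with Benjamini-Hochberg adjustment over all genes tested. Intervals are at 95%. Separate animals per library are not stated, so the p-values cover the spread between samples only, and that spread may be technical. No replicate pair agreed within sampling noise (lowest chi-square per degree of freedom 14.8). The table holds no gene lengths, so GENCODE M21 transcript lengths were used, a choice made after seeing the data. Genes named are the 5 members, other connexins and pannexins with a mean of at least 1 CPM, the 4 partners with the smallest p plus Tjp1 and Cdh1, Krt12 and the 3 nearest genes by pattern; Gjc3, Gja5 and Tsg101 fall outside this rule and were named after their values were seen. Some connexins are not reported here and enter no count or share of connexins. Members and lists were chosen with earlier results of these data known. The alternatives included DESeq2 1.42.0 and limma 3.58.1 (voom). The edgeR test was checked on simulated counts.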

Additional observations from a re-analysis of the deposited data

How the results depend on the processing

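Under 16 alternatives (other scalings, filters and tests, the replicate block and each library left out in turn), 79 values of the 5 connexins kept their sign, 1 did not, and none passed the test. With 1 library left out, Gjb2 ran from -0.0013 (without Cationorm 1) to 0.15. With limma-voom sample weights, the smallest adjusted p of the 5 was 0.238. The number of genes called among all genes was 0 in edgeR and limma-voom with all libraries, 66 in DESeq2 without filterByExpr and 51 in DESeq2 on the filtered genes, and from 0 to 350 with 1 library left out: 350 without Cationorm 3, 8 without Control 3 and 1 without Control 2. None of these calls was a connexin, pannexin or partner gene. DESeq2 gave no adjusted p for Gjc3 and Gja5, so it could not call them. Without Cationorm 3, the adjusted p in edgeR was 0.06 for Gjd2, 0.0803 for Panx2 and 0.104 for Gjc3. For the other channel and partner genes, 353 values kept their sign and 13 did not, and the genes concerned are named here for that reason. Gja4 turned to 0.05 with sample weights, and with 1 library left out Gja4 ran from -0.10 to 0.10, Panx1 from -0.01 to 0.15, Tjp1 from -0.01 to 0.09, Cdh2 from -0.12 to 0.09, Dbn1 from -0.02 to 0.15, Src from -0.07 to 0.01 and Hgs from -0.05 to 0.02.

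Same-numbered libraries did not deviate together (correlations of -0.164, -0.292 and -0.142 for numbers 1, 2 and 3). This shows no pairing by number but cannot exclude one, since each deviation is from a mean of 3 libraries. With the replicate block, 0 genes were called, and the log2 fold change was 0.37 for Gjb6 and 0.38 for Gjc1.

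Shares of connexin transcripts moved with the length used. Without length they were 73.5% in Cationorm and 73.3% in Control for Gja1, 16.6% and 16.7% for Gjb2, 4.22% and 4.26% for Gjb5 and 2.02% and 1.67% for Gjb6, with Gjc1 at 0.496% in Cationorm. With merged exons, added after seeing the data, they were 38.5% in Cationorm and 38.2% in Control for Gja1, 37.0% and 37.1% for Gjb2, 13.2% in both groups for Gjb5 and 4.05% and 3.34% for Gjb6, with Gjc1 at 0.533% in Cationorm. Of the 5 connexins, Gjc1 had the fewest counts, 74 to 122 per library.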
